A study of Mus musculus with 6 samples.

Results

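A set of 46 genes of endothelial cells, the cells that line blood and lymph vessels, was examined in RNA-seq of primary mouse myoblast cultures. The genes were chosen by name, as known markers and regulators of endothelium, and all 46 were found among the 54532 genes of the count table. All 46 also passed the filter on low counts, which kept 14679 genes. Between 46 and 14741 reads were counted on a member in a library. The study asked what the loss of eIF5A, a translation factor activated by hypusine, a modification made from spermidine, does in muscle stem cells. Cells were freed enzymatically from the hind-limb muscles of C57BL/6j mice 3 weeks old, strained, grown as proliferating cultures and collected on day 2, and the sources used here describe no sort for the sequenced cultures. The 3 libraries labelled eIF5A-KO came from tamoxifen-treated Pax7 CreERT2/+; eIF5A f/f mice, in which Cre is driven by the Pax7 promoter, active in satellite cells. The 3 WT libraries came from littermates. The sources used here give WT controls of the study both as Pax7 CreERT2/+ and as Pax7 +/+; eIF5A f/f mice, so that it is not settled whether the WT cells of these libraries carried Cre. The paper speaks of triplicate experiments for its bulk RNA-seq of WT and eIF5A-KO cells. Neither that wording nor the labels say whether the replicates came from separate animals or cultures. The p-values therefore measure the spread between these libraries, which may be technical.

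Endothelial cells hold to each other through VE-cadherin, PECAM and claudin contacts, and they grow and survive on VEGF and angiopoietin signals read by receptors that few other cells make. Arteries, veins, capillaries and lymphatic vessels differ in ephrins, connexins, fenestral proteins and transcription factors. In skeletal muscle a dense capillary bed runs along the fibres, and satellite cells lie close to it. ETS factors, Erg among them, bind a GGAA core in the regulatory DNA of many endothelial genes.

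Eif5a itself, the targeted gene, measured 1603, 986 and 1238 CPM in the WT libraries and 1364, 1459 and 1059 CPM in those labelled eIF5A-KO. CPM here are counts relative to library size, scaled with TMM factors, and values are given in the order of replicates 1 to 3. The log2 fold change was 0.021 (95% CI -0.51 to 0.55), so that no lower transcript level was seen in the libraries labelled eIF5A-KO. A count per gene pools all of its exons, floxed ones included, so that this level does not tell whether the gene was recombined. The genotype is given below as the label of the libraries. Total counts ran from 16281216 to 17734551 per library, and the mitochondrial share of counts was 5.75% in WT replicate 1 against 2.11 to 3.5% in the others. For the endothelial genes WT replicate 1 stood low and replicate 3 labelled eIF5A-KO high. Medians of gene groups and estimates of single members are therefore also given with each of these 2 libraries left out in turn, always first without WT replicate 1 and then without replicate 3 labelled eIF5A-KO. Leaving out WT replicate 2 instead raised the medians of the member groups, and those medians are given where they moved by over 1.5 times.

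The endothelial transcripts were abundant in these cultures. Of the 46 genes, 41 lay above the median FPKM (fragments per kilobase of gene, scaled to library size by the authors) of the genes tested, and 16 lay in the top 10%. The highest was the tight junction claudin Cldn5 with a mean of 167 FPKM over the 6 libraries. The ligand Angpt2 (150 FPKM), the co-receptor Eng (148) and VE-cadherin, Cdh5 (137), followed. On the same scale the myogenic regulator Myod1 measured 184 FPKM and Pax7, the satellite cell factor, 3.43 FPKM, so that the cultures labelled primary myoblast held the defining markers of both endothelium and muscle progenitors. At the low end stood the lymphatic regulator Prox1 with 1.08 FPKM and the lymphatic hyaluronan receptor Lyve1 with 1.86. The 46 genes together took 0.43, 0.875 and 0.78% of the counts in WT replicates 1 to 3 and 0.832, 0.707 and 1.08% in replicates 1 to 3 labelled eIF5A-KO. In bulk RNA, more endothelial cells and more endothelial RNA per cell cannot be told apart.

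Of the 46 endothelial genes, 43 had a higher fitted level in the libraries labelled eIF5A-KO (93.5%, against 48.3% of all genes tested), yet none of the 46 passed the test. That number was 34 without WT replicate 1, 37 without replicate 3 labelled eIF5A-KO and 23 without both. None reached an adjusted p under 0.05 in edgeR, where 3 of 14679 genes did (0.0204%), and the smallest adjusted p of a member was 0.491. With an unadjusted p under 0.05, 6 members were higher (13.0%) and 0 lower, beside 2.74% of all genes higher and 4.02% lower. DESeq2 and limma-voom gave the same counts, 0 members adjusted and 6 unadjusted. The 6 became 13 without WT replicate 2 and 2 without replicate 3 labelled eIF5A-KO. The CPM of the groups did not overlap for 6 members, all of them higher (13.0%), and for 0 lower ones, beside 5.68% and 6.83% of all genes. The median log2 fold change of the members was 0.34, beside -0.011 over all genes tested, and single members ranged from -0.50 to 0.95. The 95% confidence interval included 0 for 40 of the 46, with standard errors from 0.18 to 0.45 on the log2 scale.

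**Figure D1:**
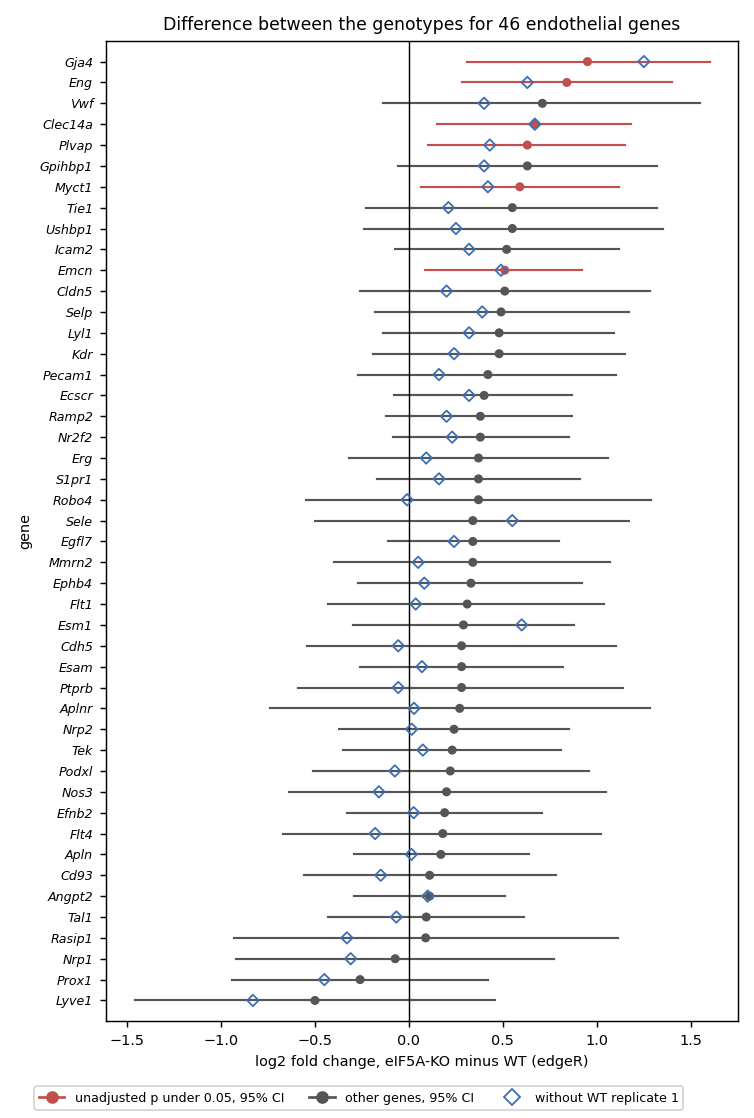
Log2 fold change of each endothelial gene (x axis), with points for the edgeR estimate, bars for its 95% confidence interval and open diamonds for the estimate without WT replicate 1. The 6 genes in red have an unadjusted p under 0.05, and 43 of the 46 points lie above 0, 34 once WT replicate 1 is left out.

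Gja4, Eng, Clec14a, Plvap, Myct1 and Emcn were the 6 members with an unadjusted p under 0.05. Gja4 (ENSMUSG00000050234, chr4:127311421-127314039, minus strand) encodes a gap junction connexin of arterial endothelium. Gene coordinates are those of the count table, on mm10 (GRCm38). It measured 11.1, 6.10 and 7.09 CPM in the WT libraries and 20.9, 13.3 and 13.2 CPM in those labelled eIF5A-KO, so that every library labelled eIF5A-KO lay above every WT library. The means were 8.10 ± 2.66 CPM in WT and 15.8 ± 4.40 CPM in those labelled eIF5A-KO (SD, n = 3), and the log2 fold change was 0.95 (95% CI 0.31 to 1.60) with unadjusted p = 0.00835 and adjusted p = 0.495 in edgeR. Eng (ENSMUSG00000026814, chr2:32646595-32682669, plus strand) encodes endoglin, the co-receptor for BMP and TGF-beta ligands on endothelium. Its values were 292, 487 and 518 CPM in the WT libraries and 854, 632 and 836 CPM in those labelled eIF5A-KO, again without overlap. The fold between the means was 1.79, and the log2 fold change 0.84 (95% CI 0.28 to 1.40) with unadjusted p = 0.00788 and adjusted p = 0.491 in edgeR. Over the 18 alternative analyses the adjusted p of Gja4 ran from 0.0251 to 1.0 and that of Eng from 0.0261 to 1.0. Both were under 0.05 when low genes were not filtered out, and Gja4 also when both WT replicate 1 and replicate 3 labelled eIF5A-KO were left out, at 0.0445.

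Clec14a (ENSMUSG00000045930, chr12:58264720-58269290, minus strand), an endothelial C-type lectin-like receptor, was nearly constant in WT. Its 39.6, 39 and 40.8 CPM in the WT libraries and 50, 52.7 and 87.1 CPM in those labelled eIF5A-KO put replicate 3 labelled eIF5A-KO well above the rest, and the log2 fold change went from 0.67 (95% CI 0.15 to 1.18, unadjusted p = 0.0164 and adjusted p = 0.56 in edgeR) to 0.37 without that library. Plvap (ENSMUSG00000034845, chr8:71497765-71511752, minus strand) makes the diaphragms of fenestrae and caveolae. It measured 105, 173 and 178 CPM in the WT libraries and 241, 195 and 268 CPM in those labelled eIF5A-KO, without overlap but with WT replicate 1 far below the other WT libraries. The log2 fold change was 0.63 (95% CI 0.10 to 1.15), with unadjusted p = 0.0242 and adjusted p = 0.627 in edgeR. Emcn (ENSMUSG00000054690, chr3:137341067-137432185, plus strand), the sialomucin endomucin of capillary and venous endothelium, measured 145, 131 and 173 CPM in the WT libraries and 237, 179 and 221 CPM in those labelled eIF5A-KO. Its difference of 0.51 (95% CI 0.088 to 0.92), with unadjusted p = 0.0228 and adjusted p = 0.611 in edgeR, was also without overlap. Myct1 (ENSMUSG00000046916, chr10:5593775-5606904, plus strand) had 36.6, 51.1 and 60.5 CPM in the WT libraries and 86.6, 57.4 and 79.2 CPM in those labelled eIF5A-KO, in which WT replicate 3 lay above replicate 2 labelled eIF5A-KO. Its log2 fold change was 0.59 (95% CI 0.063 to 1.12), with unadjusted p = 0.0319 and adjusted p = 0.66 in edgeR. With the 2 libraries left out in turn, the estimates were 1.25 and 1.07 for Gja4, 0.63 and 0.78 for Eng, 0.67 and 0.37 for Clec14a, 0.43 and 0.52 for Plvap, 0.49 and 0.48 for Emcn and 0.42 and 0.54 for Myct1.

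**Figure D2:**
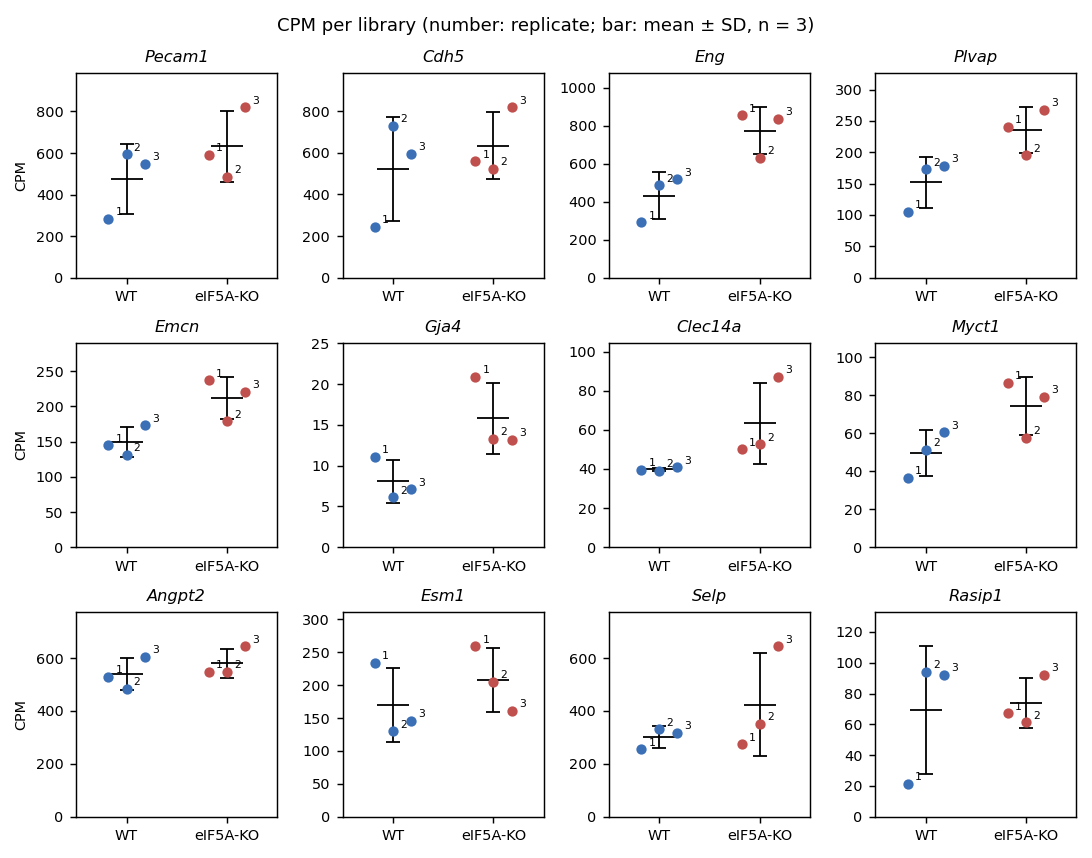
CPM (y axis, from 0) of 12 endothelial genes in each library, with the replicate number beside each point and bars for the mean ± SD of 3 libraries. WT replicate 1 is the lowest point for Pecam1, Cdh5, Eng, Plvap, Myct1, Selp and Rasip1, and Gja4, Eng, Emcn, Plvap and Clec14a show no overlap between the groups.

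The promoter sequence next to the start site of these genes is shown because ETS cores are a known feature of endothelial promoters. RefSeq promoter windows of GRCm38.p6 were found for 28 of the 46 members, Plvap not among them. The 150 bases before the RefSeq start, which need not be the start given in the count table, are given 5′ to 3′ on the strand of the gene, with GGAA and its reverse complement TTCC in capitals, at chr4:127314040-127314189 for Gja4, chr2:32646445-32646594 for Eng, chr12:58269259-58269408 for Clec14a, chr3:137340928-137341077 for Emcn and chr10:5593578-5593727 for Myct1.
Gja4 promoter: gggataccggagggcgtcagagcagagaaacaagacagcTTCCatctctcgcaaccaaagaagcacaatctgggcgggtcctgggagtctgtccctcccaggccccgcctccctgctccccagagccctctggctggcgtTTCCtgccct
Eng promoter: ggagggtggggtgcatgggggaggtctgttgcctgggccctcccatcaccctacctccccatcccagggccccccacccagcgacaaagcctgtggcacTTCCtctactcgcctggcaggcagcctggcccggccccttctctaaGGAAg
Clec14a promoter: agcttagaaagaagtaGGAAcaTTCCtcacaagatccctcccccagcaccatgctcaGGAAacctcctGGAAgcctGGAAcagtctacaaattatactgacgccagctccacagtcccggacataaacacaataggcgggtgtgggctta
Emcn promoter: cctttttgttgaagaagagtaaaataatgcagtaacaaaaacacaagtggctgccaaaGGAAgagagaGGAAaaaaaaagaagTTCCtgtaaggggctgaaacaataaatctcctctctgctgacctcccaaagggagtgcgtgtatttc
Myct1 promoter: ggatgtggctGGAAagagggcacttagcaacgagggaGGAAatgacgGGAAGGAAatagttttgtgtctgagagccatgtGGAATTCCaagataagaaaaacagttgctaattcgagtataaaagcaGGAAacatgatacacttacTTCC
These stretches held 2 cores for Gja4, 2 for Eng, 5 for Clec14a, 3 for Emcn and 8 for Myct1. Over the 250 bases before the start, and on either strand, GGAA was found in 27 of the 28 members (96.4%) and in 93.4% of 27025 promoters, so that the core alone hardly separated them. The longer CAGGAA, which contains the core, was found in 16 of 28 (57.1%) against 25.4% of all promoters, and AGGAAG, which also contains it and can overlap CAGGAA, in 14 (50%) against 29.2%. CCGGAA was found in 2 (7.14% against 12.3%) and GATAA, the letters read by GATA factors, in 4 (14.3% against 23.1%). These are matches of letters, not binding sites.

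The genes of cell contacts and the cell surface had higher fitted values in 9 of 9 cases, with a median log2 fold change of 0.42. The median fell to 0.20, with 7 of 9 higher, without WT replicate 1, and to 0.25, with 9 of 9 higher, without replicate 3 labelled eIF5A-KO. Pecam1 (ENSMUSG00000020717, chr11:106654217-106750628, minus strand), an adhesion molecule of endothelial contacts, measured 282, 593 and 548 CPM in the WT libraries and 590, 487 and 820 CPM in those labelled eIF5A-KO. Only WT replicate 1 stood low among WT, and the 2 groups overlapped. The means were 474 ± 168 CPM in WT and 633 ± 171 CPM in those labelled eIF5A-KO (SD, n = 3), with a log2 fold change of 0.42 (95% CI -0.27 to 1.10). Cdh5 (ENSMUSG00000031871, chr8:104101625-104144511, plus strand), VE-cadherin of the adherens junctions, measured 244, 730 and 596 CPM in the WT libraries and 560, 523 and 819 CPM in those labelled eIF5A-KO. WT replicates 2 and 3 were above replicates 1 and 2 labelled eIF5A-KO, and the log2 fold change was 0.28 (95% CI -0.54 to 1.10). Leaving out the 2 libraries in turn gave 0.16 and 0.19 for Pecam1 and -0.057 and 0.051 for Cdh5.

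Cldn5, the tight junction claudin, measured 101, 241 and 249 CPM in the WT libraries and 378, 221 and 242 CPM in those labelled eIF5A-KO. Replicate 1 labelled eIF5A-KO was the highest library here, and the others were near each other except for WT replicate 1. The log2 fold change was 0.51 (95% CI -0.26 to 1.28), and 0.24 without replicate 1 labelled eIF5A-KO. Esam, an adhesion molecule of endothelial contacts and platelets, measured 165, 286 and 280 CPM in the WT libraries and 333, 244 and 308 CPM in those labelled eIF5A-KO, and its log2 fold change was 0.28 (95% CI -0.26 to 0.82). Icam2, a ligand of leukocyte integrins, came closest to the unadjusted threshold among the remaining contact genes. Its values were 19.5, 29.9 and 36.4 CPM in the WT libraries and 43.7, 30.3 and 49.4 CPM in those labelled eIF5A-KO, and the unadjusted p was 0.0797 in edgeR. The sialomucin Podxl had 63.2, 171 and 125 CPM in the WT libraries and 126, 117 and 176 CPM in those labelled eIF5A-KO, and its log2 fold change was 0.22 (95% CI -0.51 to 0.96). For the surface protein Ecscr the estimate was 0.40 (95% CI -0.08 to 0.87), from 52.5, 57.5 and 69 CPM in the WT libraries and 75.2, 61.7 and 98.7 CPM in those labelled eIF5A-KO. Neither gene separated the groups. The estimates with the same libraries left out in turn were 0.20 and 0.61 for Cldn5, 0.069 and 0.25 for Esam, 0.32 and 0.37 for Icam2, -0.075 and 0.022 for Podxl and 0.32 and 0.20 for Ecscr, where that of Icam2 was 0.52 with all libraries.

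For the VEGF receptors and co-receptors, 4 of 5 fitted values were higher, with a median log2 fold change of 0.24, and 0 had an unadjusted p under 0.05. The median became 0.015 without WT replicate 1, with 3 of 5 higher, and 0.049 without replicate 3 labelled eIF5A-KO, with 4 of 5 higher. It became 0.64 without WT replicate 2, with 5 of 5 higher. Kdr, the main signalling receptor for VEGF, measured 125, 276 and 202 CPM in the WT libraries and 262, 219 and 360 CPM in those labelled eIF5A-KO. Flt1, which binds VEGF tightly and limits its supply to Kdr, had 102, 255 and 174 CPM in the WT libraries and 191, 174 and 291 CPM in those labelled eIF5A-KO. In both, WT replicate 1 was lowest and replicate 3 labelled eIF5A-KO highest. The log2 fold change was 0.48 (95% CI -0.19 to 1.15) for Kdr and 0.31 (95% CI -0.43 to 1.04) for Flt1. Flt4, the receptor for VEGF-C that is strongest in lymphatic endothelium, measured 19.1, 68.8 and 44.9 CPM in the WT libraries and 45.8, 45.2 and 59.1 CPM in those labelled eIF5A-KO, highest in WT replicate 2, with a log2 fold change of 0.18 (95% CI -0.67 to 1.02). Nrp1 and Nrp2 encode neuropilins, co-receptors for VEGF and semaphorins that other cell types also make. Nrp1 was the only one of the 5 with a negative estimate, -0.073 (95% CI -0.92 to 0.77), from 32.8, 87.9 and 38.3 CPM in the WT libraries and 36.9, 45.3 and 69.2 CPM in those labelled eIF5A-KO. The sign was not stable. It was above 0 without WT replicate 2 (0.50), without replicate 1 or 2 labelled eIF5A-KO (0.12 and 0.0088), with limma, with the replicate block and after the GC and length trend was taken out. Nrp2 measured 140, 299 and 210 CPM in the WT libraries and 248, 218 and 301 CPM in those labelled eIF5A-KO, and its log2 fold change was 0.24 (95% CI -0.37 to 0.85). Left out in turn, the 2 libraries gave 0.24 and 0.26 for Kdr, 0.036 and 0.049 for Flt1, -0.18 and 0.042 for Flt4, -0.31 and -0.37 for Nrp1 and 0.015 and 0.11 for Nrp2.

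In the angiopoietin-Tie system, 4 of 4 fitted values were higher, with a median log2 fold change of 0.25. It was 0.087 without WT replicate 1 and 0.034 without replicate 3 labelled eIF5A-KO, with 3 of 4 higher in each case, and 0.58 without WT replicate 2, with 4 of 4 higher. Angpt2, the ligand that endothelial cells store and release to loosen vessels, was the steadiest of all 46 genes. It measured 528, 483 and 604 CPM in the WT libraries and 549, 548 and 644 CPM in those labelled eIF5A-KO, so that its highest library was 1.33 times its lowest. Its log2 fold change was 0.11 (95% CI -0.29 to 0.51), with the smallest standard error of the members, 0.18, and WT replicate 1 was not its lowest library. The angiopoietin receptor Tek measured 60.7, 95 and 84.4 CPM in the WT libraries and 72.1, 79.8 and 130 CPM in those labelled eIF5A-KO. Its partner Tie1 had 76.1, 223 and 193 CPM in the WT libraries and 237, 201 and 280 CPM in those labelled eIF5A-KO. Tie1 was low in WT replicate 1 alone, and its log2 fold change was 0.55 (95% CI -0.23 to 1.32), while the estimate for Tek was 0.23 (95% CI -0.35 to 0.81). Ptprb, the phosphatase that acts on Tek and VE-cadherin, measured 33.5, 114 and 67.7 CPM in the WT libraries and 75.9, 71.6 and 114 CPM in those labelled eIF5A-KO, with a log2 fold change of 0.28 (95% CI -0.59 to 1.14). These estimates, with the 2 libraries left out in turn, were 0.10 and 0.028 for Angpt2, 0.074 and -0.073 for Tek, 0.21 and 0.42 for Tie1 and -0.057 and 0.039 for Ptprb.

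Of endoglin and the genes of vasoactive signalling, 6 of 6 had higher fitted values, with a median log2 fold change of 0.32, and Eng, described above, was the 1 with an unadjusted p under 0.05. The median was 0.093 without WT replicate 1 and 0.25 without replicate 3 labelled eIF5A-KO, with 5 of 6 higher in each case, and 0.51 without WT replicate 2, with 6 of 6 higher. S1pr1, a receptor for the lipid sphingosine phosphate that stabilises junctions, measured 185, 322 and 315 CPM in the WT libraries and 365, 299 and 397 CPM in those labelled eIF5A-KO. It lay in the top 10% by FPKM (102), and its log2 fold change was 0.37 (95% CI -0.17 to 0.91). The peptide Apln and its receptor Aplnr did not share a pattern over the libraries. Apln measured 102, 142 and 161 CPM in the WT libraries and 174, 141 and 142 CPM in those labelled eIF5A-KO, with an estimate of 0.17 (95% CI -0.29 to 0.64). For Aplnr the values were 13.4, 28.7 and 23.8 CPM in the WT libraries and 15.8, 15.6 and 48.5 CPM in those labelled eIF5A-KO, with replicate 3 labelled eIF5A-KO far above the rest. The log2 fold change of Aplnr was 0.27 (95% CI -0.74 to 1.28). Ramp2, which turns the calcitonin receptor-like receptor into an adrenomedullin receptor, measured 23.2, 31.8 and 40.9 CPM in the WT libraries and 45, 37.8 and 41.7 CPM in those labelled eIF5A-KO, and its log2 fold change was 0.38 (95% CI -0.12 to 0.87). Nos3, the endothelial nitric oxide synthase, measured 20, 68.6 and 55.9 CPM in the WT libraries and 53.1, 48.1 and 65.5 CPM in those labelled eIF5A-KO. The other 5 libraries averaged 2.91 times WT replicate 1, and the log2 fold change was 0.20 (95% CI -0.64 to 1.05). Estimates with the 2 libraries left out in turn were 0.16 and 0.28 for S1pr1, 0.013 and 0.22 for Apln, 0.027 and -0.48 for Aplnr, 0.20 and 0.37 for Ramp2 and -0.16 and 0.072 for Nos3.

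The C-type lectin-like receptors Cd93 and Clec14a both bind the matrix protein Mmrn2 on endothelium, and the values of the 3 genes were not ordered alike over the libraries. Cd93 measured 270, 635 and 470 CPM in the WT libraries and 461, 419 and 603 CPM in those labelled eIF5A-KO. Mmrn2 had 132, 332 and 263 CPM in the WT libraries and 266, 251 and 402 CPM in those labelled eIF5A-KO. Both were lowest in WT replicate 1, with log2 fold changes of 0.11 (95% CI -0.56 to 0.78) for Cd93 and 0.34 (95% CI -0.40 to 1.07) for Mmrn2, whereas Clec14a ran from 39 to 40.8 CPM over the 3 WT libraries. Egfl7, a secreted matrix-bound factor whose gene also hosts a microRNA, measured 221, 260 and 309 CPM in the WT libraries and 383, 271 and 348 CPM in those labelled eIF5A-KO, and its log2 fold change was 0.34 (95% CI -0.11 to 0.80). Esm1, the tip cell proteoglycan endocan, was one of the few members that were high in WT replicate 1. Its values were 234, 130 and 146 CPM in the WT libraries and 259, 205 and 161 CPM in those labelled eIF5A-KO, and its log2 fold change was 0.29 (95% CI -0.30 to 0.88). Of these 5 genes, 5 had higher fitted values, with a median of 0.34, and 4 of 5 with either library left out, with medians of 0.24 and 0.32. Single estimates with the 2 left out in turn were -0.15 and -0.057 for Cd93, 0.049 and 0.093 for Mmrn2, 0.24 and 0.32 for Egfl7 and 0.60 and 0.45 for Esm1.

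The guidance genes Robo4, Efnb2 and Ephb4 all had higher fitted values, with a median log2 fold change of 0.33. Without WT replicate 1 it was 0.025, with 2 of 3 higher, and without replicate 3 labelled eIF5A-KO 0.20, with 3 of 3 higher, whereas it was 0.56 without WT replicate 2, with 3 of 3 higher. Robo4, a receptor that stabilises vessels, measured 28.7, 111 and 86.1 CPM in the WT libraries and 100, 73.6 and 118 CPM in those labelled eIF5A-KO, and its log2 fold change was 0.37 (95% CI -0.55 to 1.29). Efnb2, the arterial ephrin, measured 84.1, 143 and 111 CPM in the WT libraries and 117, 112 and 157 CPM in those labelled eIF5A-KO. Ephb4, its venous receptor, had 81.1, 171 and 143 CPM in the WT libraries and 157, 146 and 193 CPM in those labelled eIF5A-KO. The estimates of 0.19 (95% CI -0.33 to 0.71) for Efnb2 and 0.33 (95% CI -0.27 to 0.92) for Ephb4 both had intervals that included 0. For the 3 genes the 2 libraries left out in turn gave -0.01 and 0.21 for Robo4, 0.025 and 0.024 for Efnb2 and 0.082 and 0.20 for Ephb4.

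Sele, Selp and Vwf serve leukocyte capture and haemostasis, and Selp and Vwf share the same storage granules. All 3 were highest in replicate 3 labelled eIF5A-KO. Selp measured 255, 330 and 318 CPM in the WT libraries and 274, 352 and 644 CPM in those labelled eIF5A-KO. Sele, a selectin made by activated endothelium, had 70.1, 45 and 50.8 CPM in the WT libraries and 37, 56.4 and 116 CPM in those labelled eIF5A-KO. The estimate was 0.49 (95% CI -0.18 to 1.17) for Selp and 0.34 (95% CI -0.50 to 1.17) for Sele. Vwf measured 65.8, 190 and 138 CPM in the WT libraries and 161, 177 and 306 CPM in those labelled eIF5A-KO, with the widest spread of all members, a factor of 4.65 between its highest and lowest library. Its log2 fold change was 0.71 (95% CI -0.14 to 1.55), with unadjusted p = 0.0908 and adjusted p = 0.811 in edgeR. Leaving out first WT replicate 1 and then replicate 3 labelled eIF5A-KO gave 0.39 and 0.059 for Selp, 0.55 and -0.24 for Sele and 0.40 and 0.36 for Vwf. The median of the 3 genes was 0.49 with all libraries, and 0.40 and 0.059 with these left out.

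Capillary genes and regulators of small GTPases gave 5 of 5 higher fitted values and a median of 0.59 on the log2 scale, and 2 of them, Plvap and Myct1, had an unadjusted p under 0.05. The median was 0.40 without WT replicate 1 and 0.52 without replicate 3 labelled eIF5A-KO, with 4 of 5 higher in each case. Gpihbp1, which carries lipoprotein lipase to the capillary lumen, measured 26.8, 56.4 and 44.1 CPM in the WT libraries and 86.8, 45.4 and 65.1 CPM in those labelled eIF5A-KO, and its log2 fold change was 0.63 (95% CI -0.06 to 1.32) with unadjusted p = 0.0689 and adjusted p = 0.794 in edgeR. Rasip1, needed for lumen formation, was low in WT replicate 1. It measured 21.4, 93.9 and 92.1 CPM in the WT libraries and 67.2, 61.4 and 92.1 CPM in those labelled eIF5A-KO, so that the other libraries averaged 3.80 times that one. This was the widest such gap of the 46 genes as normalized, but after a trend on GC content and length had been taken out Robo4, Cldn5 and Cdh5 had wider ones. The log2 fold change of Rasip1 was 0.089 (95% CI -0.93 to 1.11). Ushbp1 measured 12, 27.9 and 31.1 CPM in the WT libraries and 40.6, 22.8 and 41.1 CPM in those labelled eIF5A-KO, and its estimate was 0.55 (95% CI -0.24 to 1.35). For these genes the estimates with the 2 libraries left out in turn were 0.40 and 0.64 for Gpihbp1, -0.33 and -0.10 for Rasip1 and 0.25 and 0.42 for Ushbp1.

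Transcription factors of the endothelium had higher fitted values in 4 of 4 members, with a median log2 fold change of 0.37. It was 0.16 without WT replicate 1 and 0.18 without replicate 3 labelled eIF5A-KO, each with 3 of 4 higher. The ETS factor Erg measured 44.6, 96.2 and 95.6 CPM in the WT libraries and 86.2, 85.6 and 133 CPM in those labelled eIF5A-KO. Nr2f2, which gives veins their identity, had 46.8, 66.9 and 69.9 CPM in the WT libraries and 73.6, 71 and 94.6 CPM in those labelled eIF5A-KO. Nr2f2 was without overlap, with a log2 fold change of 0.38 (95% CI -0.087 to 0.85) and unadjusted p = 0.0992 and adjusted p = 0.815 in edgeR, and Erg had 0.37 (95% CI -0.32 to 1.06). Tal1 and Lyl1, related basic helix-loop-helix factors of blood and endothelium, gave 0.092 (95% CI -0.43 to 0.61) for Tal1 and 0.48 (95% CI -0.14 to 1.09) for Lyl1. Lyl1 overlaps the exons of Nfix on the other strand, which had 11153 counts over the libraries against 681 for Lyl1, so that its level is uncertain where counting ignored strand. Estimates of the 4 factors with the 2 libraries left out in turn were 0.092 and 0.13 for Erg, 0.23 and 0.24 for Nr2f2, -0.067 and -0.024 for Tal1 and 0.32 and 0.32 for Lyl1. The lymphatic genes were the other members with negative estimates. Lyve1 measured 2.97, 10.1 and 6.20 CPM in the WT libraries and 3.06, 4.32 and 6.18 CPM in those labelled eIF5A-KO. Prox1 had 6.98, 15 and 7.86 CPM in the WT libraries and 9.24, 7.46 and 8.28 CPM in those labelled eIF5A-KO. Both were highest in WT replicate 2, with log2 fold changes of -0.50 (95% CI -1.46 to 0.46) for Lyve1 and -0.26 (95% CI -0.94 to 0.42) for Prox1. The 2 libraries left out in turn gave -0.83 and -0.78 for Lyve1 and -0.45 and -0.25 for Prox1. Leaving out WT replicate 2 instead brought Lyve1 to -0.021 and turned Prox1 to 0.16.

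The same libraries stood at the ends of the range for most of the 46 genes. WT replicate 1 was the lowest library for 40 of them, beside 27.9% of all genes tested, and replicate 3 labelled eIF5A-KO the highest for 27, beside 13.1%. The exceptions to the low library were Emcn, Gja4, Angpt2, Clec14a and Esm1, lowest in WT replicate 2, and Sele, lowest in replicate 1 labelled eIF5A-KO. Markers of other cell types differed in how far they shared this order. The glial markers S100b, Sox10, Mbp and Cdh19 were lowest in WT replicate 1 for 3 of 4 and highest in replicate 3 labelled eIF5A-KO for 4 of 4, and the mural markers for 6 and 4 of 10. Leukocyte markers were lowest in WT replicate 1 for 5 of 11 and highest in replicate 3 labelled eIF5A-KO for 0, myogenic markers for 4 and 0 of 10, fibroblast markers for 3 and 1 of 10, lymphatic endothelial markers for 4 and 0 of 7, and platelet and erythroid markers for 0 and 0 of 3 and of 4. The summed level of the 46 was 4633, 8229 and 7497 CPM in WT replicates 1 to 3 and 8572, 7337 and 10477 CPM in replicates 1 to 3 labelled eIF5A-KO. The means were 6786 ± 1901 CPM in WT and 8795 ± 1582 CPM in the libraries labelled eIF5A-KO (SD, n = 3), a ratio of 1.3, which was 1.12 without WT replicate 1, 1.17 without replicate 3 labelled eIF5A-KO and 1.01 without both. Leaving out both, 23 of 46 fitted values were higher, with a median of -0.0048. These 2 are the lowest WT and the highest eIF5A-KO library of this sum, so that the ratio had to fall without them. Other pairs of libraries were not left out together. The counts were 34 higher with a median of 0.13 without WT replicate 1, 37 higher with a median of 0.20 without replicate 3 labelled eIF5A-KO, and 45 higher with a median of 0.55 without WT replicate 2.

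**Figure D3:**
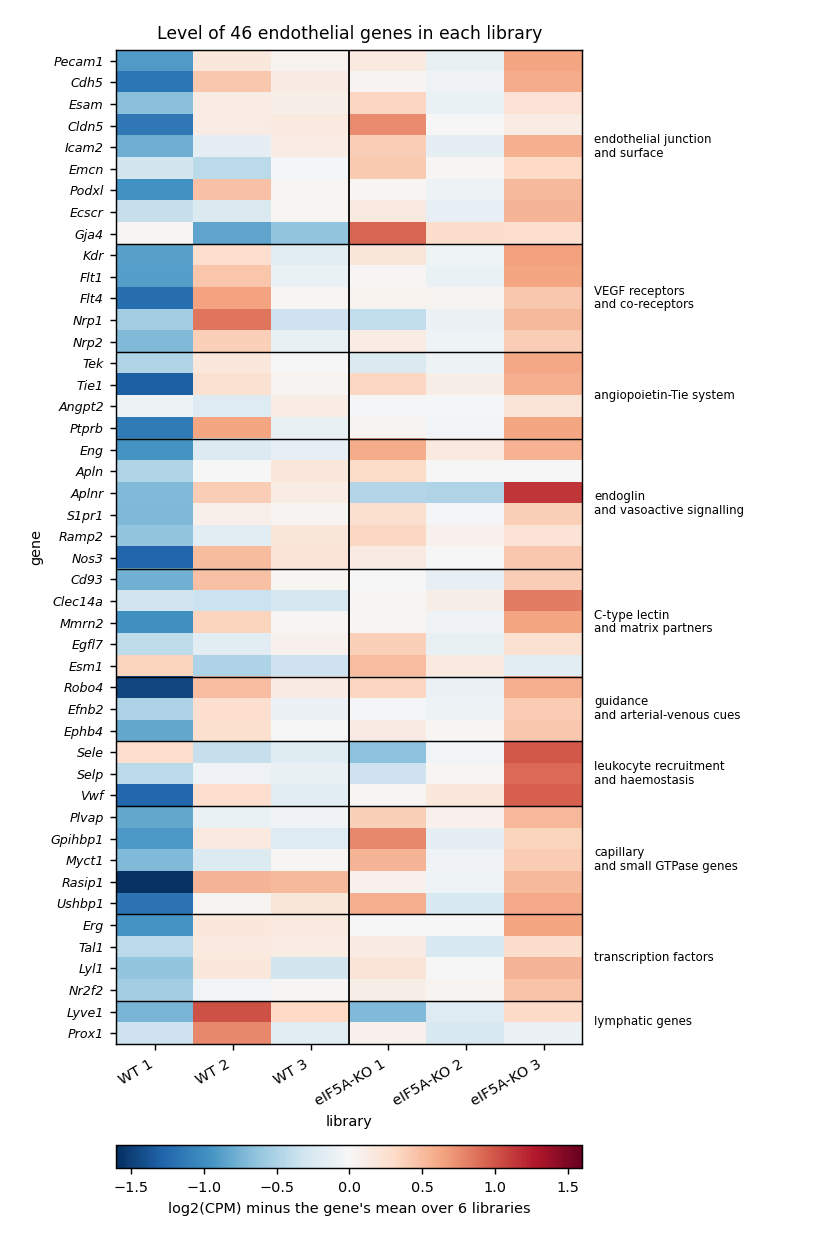
Colour shows the log2 CPM of each endothelial gene (rows, grouped by role) in each library (columns) minus the mean of that gene over the 6 libraries. WT replicate 1 is blue, the lowest library, for 40 of 46 genes, and replicate 3 labelled eIF5A-KO is the highest for 27.

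**Figure D4:**
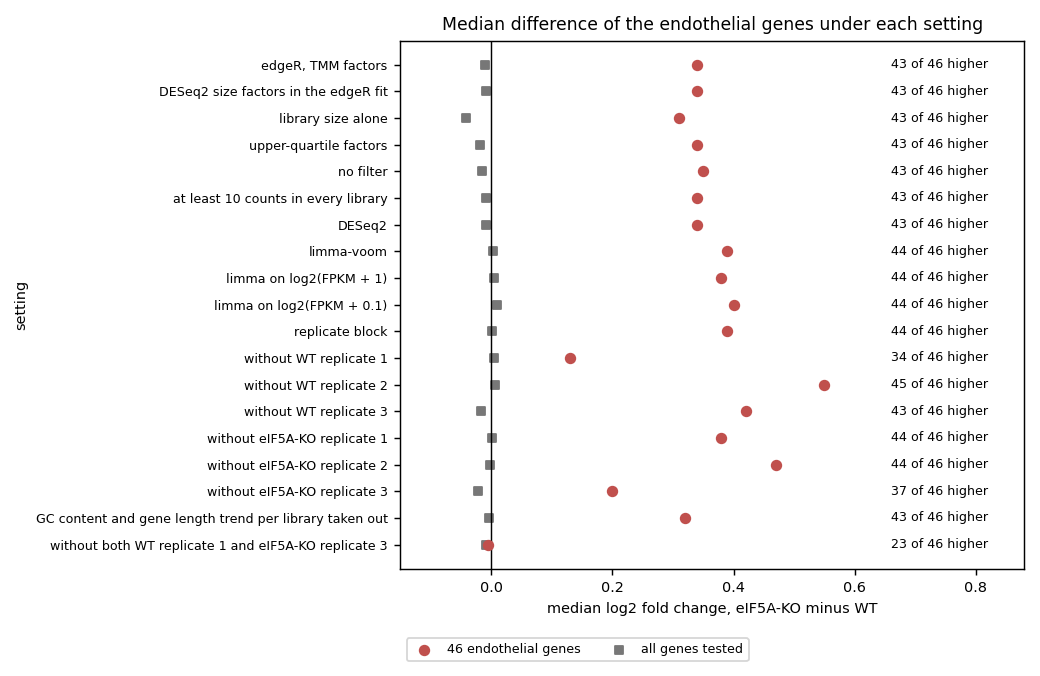
Median log2 fold change of the 46 endothelial genes (circles) and of all genes tested (squares) for each way of analysing the counts, with the number of members above 0 at the right. The median stays between 0.31 and 0.40 with all 6 libraries and is 0.13 without WT replicate 1. It is -0.0048 without both that library and replicate 3 labelled eIF5A-KO, chosen as the low WT and high eIF5A-KO library.

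Base composition moved with the low library. GC content of the longest transcript had a median of 51.5% over the members (40.7 to 63.6%), beside 49.7% over 14667 genes tested. The members were lower in WT replicate 1 than in the mean of the other 5 libraries by a median of 0.87 on the log2 scale, against -0.017 over all genes. That gap was 0.67 for the 15 members lowest in GC, 0.96 for the 16 in the middle and 1.15 for the 15 highest. Its correlation with GC was r = 0.492 across the members and r = 0.303 across all genes, a description over genes that share the same libraries. After a trend on GC and on the gene length of the count table had been taken out of each library the member gap was 0.77, with r = 0.192. WT replicate 1 was then the lowest library for 42 of 46 members (25.2% of all genes). Replicate 3 labelled eIF5A-KO was the highest for 35, against 27 before the trend was taken out. In the libraries labelled eIF5A-KO 43 members were higher, and the median of the members was 0.32.

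**Figure D5:**
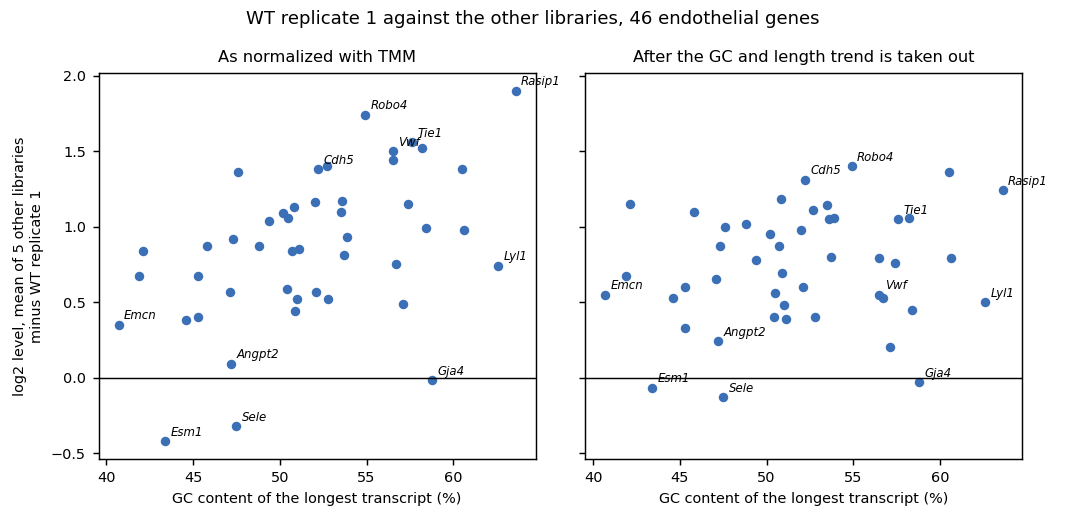
Mean log2 level of the other 5 libraries minus WT replicate 1 (y axis) against transcript GC content (x axis, %) for the 46 endothelial genes, as normalized at the left and with the GC and length trend taken out at the right. The median gap is 0.87 at the left and 0.77 at the right, and Esm1, Sele and Gja4 lie below 0 in both.

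Genes that act with the members were read from lists of their partners. Of 25 ligands and partners, 21 were tested and 16 had higher fitted values, with a median log2 fold change of 0.12, 1 with an unadjusted p under 0.05 and 0 with an adjusted one. The median was 0.13 and 0.19 with the 2 libraries left out in turn, with 13 of 21 higher in each case, and 0.23 without WT replicate 2, with 14 of 21 higher. That gene was Acvrl1, the receptor kinase that works with endoglin, with 79.5, 88.8 and 72.4 CPM in the WT libraries and 106, 112 and 116 CPM in those labelled eIF5A-KO. The groups did not overlap, and the log2 fold change was 0.47 (95% CI 0.11 to 0.83), with unadjusted p = 0.0154 and adjusted p = 0.557 in edgeR. The VEGF family ligand Pgf measured 384, 423 and 593 CPM in the WT libraries and 732, 520 and 363 CPM in those labelled eIF5A-KO. Adm, the adrenomedullin precursor, had 209, 196 and 217 CPM in the WT libraries and 220, 245 and 210 CPM in those labelled eIF5A-KO. Their estimates were 0.21 (95% CI -0.42 to 0.83) for Pgf and 0.12 (95% CI -0.24 to 0.47) for Adm, and with the 2 libraries left out in turn 0.09 and 0.42 for Pgf and 0.13 and 0.17 for Adm. Among 16 endothelial transcription factors outside the 46 genes, 15 were tested and 15 had higher fitted values, with a median of 0.37 and 13 lowest in WT replicate 1. This became 11 of 15 with a median of 0.21 without WT replicate 1, 12 of 15 with a median of 0.31 without replicate 3 labelled eIF5A-KO, and 15 of 15 with a median of 0.63 without WT replicate 2. The 3 with an unadjusted p under 0.05 were Hhex, Foxc2 and Hey1, with log2 fold changes of 0.59, 0.82 and 0.69. Foxc2, a forkhead factor of lymphatic valves and mesenchyme, measured 6.79, 8.17 and 9.57 CPM in the WT libraries and 16.1, 13.5 and 14.1 CPM in those labelled eIF5A-KO, without overlap, and its adjusted p was 0.398 in edgeR. The flow-induced factor Klf2 had an estimate of 0.56 (95% CI -0.018 to 1.14), and Sox18 one of 0.56 (95% CI -0.18 to 1.29), which were 0.35 and 0.29 without WT replicate 1 and 0.58 and 0.31 without replicate 3 labelled eIF5A-KO.

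Markers of the cells that accompany vessels were read in the same fit. Mural cells, the pericytes and smooth muscle around endothelium, had 10 of 10 markers with higher fitted values and a median of 0.52, 5 with an unadjusted p under 0.05. Left out in turn, the 2 libraries brought this to medians of 0.39 and 0.40, with 9 of 10 higher in each case, and the median was 0.99 without WT replicate 2, with 10 of 10 higher. Myh11, smooth muscle myosin, measured 10.5, 11 and 10.5 CPM in the WT libraries and 29.2, 28.3 and 34.2 CPM in those labelled eIF5A-KO, and with a log2 fold change of 1.51 (95% CI 1.12 to 1.90) and unadjusted p = 8.4e-06 and adjusted p = 0.0486 in edgeR it was the only gene of any list past the threshold. Over the 18 alternatives its adjusted p ran from 3.6e-10 to 0.315. Pdgfrb, the pericyte receptor, measured 162, 247 and 218 CPM in the WT libraries and 417, 368 and 318 CPM in those labelled eIF5A-KO, also without overlap. The summed mural markers were 373, 630 and 490 CPM in WT replicates 1 to 3 and 772, 724 and 787 CPM in replicates 1 to 3 labelled eIF5A-KO. Unlike the summed endothelial genes, the mural sums of the groups did not overlap, but Pdgfrb was the largest part of each sum. Singly, 5 of the 10 markers were without overlap, and the contrast was not tested without Pdgfrb.

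Myogenic markers went the other way, with 9 of 10 fitted values lower, a median log2 fold change of -0.49 and 3, Pax7, Myog and Chrna1, with an unadjusted p under 0.05. The estimates were -1.49 for Pax7, -2.91 for the differentiation factor Myog and -1.62 for the acetylcholine receptor subunit Chrna1. The median was -0.78, with 9 of 10 lower, without WT replicate 1, and -0.31, with 7 of 10 lower, without replicate 3 labelled eIF5A-KO. It was -0.12, with 5 of 10 lower, without WT replicate 2, where the estimate for Pax7 was -0.84. The marker sums were 726, 1926 and 1339 CPM in WT replicates 1 to 3 and 1264, 900 and 667 CPM in replicates 1 to 3 labelled eIF5A-KO. WT replicate 1 was thus low in both endothelial and myogenic sums, while replicate 3 labelled eIF5A-KO was highest in the endothelial and lowest in the myogenic sum. The part of culture composition in these differences was not tested. Fibroblast markers summed to 3666, 3010 and 3022 CPM in WT replicates 1 to 3 and 3154, 3764 and 2940 CPM in replicates 1 to 3 labelled eIF5A-KO, with 3 of 10 fitted values higher and a median of -0.12, and the collagen genes Col1a1 and Col1a2 were the 2 with an unadjusted p under 0.05, at 0.72 and 0.71. The direction of the list was not stable, since 6 of 10 were higher without WT replicate 1, with a median of 0.14, and 5 of 10 without WT replicate 2, with a median of 0.035, while without replicate 3 labelled eIF5A-KO 4 of 10 were, with a median of -0.071. WT replicate 1 was not low in that sum, but Dcn was its largest part there, at 1542 CPM against 628 to 1041 CPM elsewhere. Singly, 3 of the 10 markers were lowest in WT replicate 1, Col1a1 and Col1a2 among them.

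Markers of blood cells, which can carry transcripts shared with endothelium, were also detected. Leukocyte markers summed to 59.1, 148 and 69 CPM in WT replicates 1 to 3 and 176, 137 and 59.5 CPM in replicates 1 to 3 labelled eIF5A-KO, platelet markers to 10.0 to 23.1 CPM and erythroid markers to 61.8 to 138 CPM. The leukocyte list had 8 of 11 tested genes with higher fitted values (median 0.34), of which Cd68 had an unadjusted p under 0.05. The median was 0.11, with 7 of 11 higher, without WT replicate 1 and 0.70, with 9 of 11 higher, without replicate 3 labelled eIF5A-KO. It was 0.83, with 11 of 11 higher, without WT replicate 2 and 0.0078, with 6 of 11 higher, without replicate 1 labelled eIF5A-KO. The leukocyte sum, like the endothelial one, was lowest in WT replicate 1 and high in WT replicate 2 and in replicate 1 labelled eIF5A-KO, but it was near its lowest in replicate 3 labelled eIF5A-KO, where the endothelial sum was highest. Lymphatic endothelial markers, 3 of which are among the 46 genes, had a median of -0.26, with 3 of 7 tested genes higher and Sema3d, at -0.81, the 1 with an unadjusted p under 0.05, and 1 of 7 (median -0.45) and 2 of 7 (median -0.25) were higher with the 2 libraries left out in turn. Its median was -0.021 without WT replicate 2. The glial markers S100b, Sox10, Mbp and Cdh19 had 4 of 4 fitted values higher, with a median of 0.21 and 0 with an unadjusted p under 0.05. Their sums were 69.5, 117 and 112 CPM in WT replicates 1 to 3 and 113, 116 and 132 CPM in replicates 1 to 3 labelled eIF5A-KO. The median was 0.055 without WT replicate 1 and 0.09 without replicate 3 labelled eIF5A-KO. Across the 46 genes, 12 share exonic bases with another annotated gene. For Eng this is Fpgs, with 4335 counts over the libraries against 61827 for Eng, for Egfl7 it is Agpat2 among others, and for Ramp2, Nos3 and Rasip1 the overlapping genes had at most 46, 380 and 180 counts. No member had a near-identical copy of its coding sequence elsewhere in the annotation.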

How the data were processed

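Raw read counts per gene were deposited by the authors for 3 WT and 3 eIF5A-KO libraries, together with a table of FPKM. RNA was extracted with TRIzol, libraries were made with a NEBNext Ultra kit, and reads were mapped with HISAT to mm10, per the submitters' notes and the methods. The HISAT version, the gene annotation and the strand setting of the counting are not given in the sources used here.

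Counts were tested with edgeR 4.0.16 in R 4.3.3 (filterByExpr, TMM factors, quasi-likelihood F test, prior count 2), and p-values were adjusted by Benjamini-Hochberg over 14679 genes, with 0.05 as the threshold. No covariate was used. The authors' FPKM served for levels between genes and in limma 3.58.1 on log2(FPKM + 1) and log2(FPKM + 0.1). Other alternatives were other size factors and filters, DESeq2 1.42.0, limma-voom, a replicate block and each library left out in turn. Removal of a GC and length trend (loess span 0.3) and of 2 libraries at once was added after the data were seen. Those 2 libraries were chosen because they stood low in WT and high in eIF5A-KO for the members. GC content, exon overlaps and copies (blastn 2.17.0, at least 200 bases at 90% identity) came from the GENCODE annotation of GRCm38. The scripts were tested on simulated data.

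The members and lists were chosen with earlier results of these data known. Values are given for every library for the members with an unadjusted p under 0.05, for the 12 with the highest mean FPKM, for Pecam1, Cdh5 and Eng, and for other members where the text turns on them. Of the other lists, genes with an unadjusted p under 0.05 and the 2 of highest FPKM were eligible to be named. The results of 2 genes of these lists are not reported here. Intervals are at 95%. Between 16281216 and 17734551 counts per library, and at least 46 per member, mean that replicate spread rather than counting limits most values.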

Additional observations from a re-analysis of the deposited data

How the results depend on the processing

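No endothelial gene was called with any scaling, with at least 10 counts in every library, with DESeq2, limma-voom, limma on FPKM, the GC and length trend taken out, or any 1 library left out. Without a filter on low counts 2 were called, Gja4 and Eng, and 14 had an unadjusted p under 0.05; without both WT replicate 1 and replicate 3 labelled eIF5A-KO 1 was called. The cause was not tested. Over all genes tested, the 3 calls became 0 with DESeq2 size factors, library size alone, at least 10 counts in every library, limma-voom or limma on either FPKM scale, 249 without a filter, 92 with DESeq2, 12 after the GC and length trend was taken out, and 0 to 56 with 1 library left out (56 without WT replicate 1), or 167 without both libraries.

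Of the 46 genes, 43 to 44 were higher under these scalings, filters and tools. With 1 library left out the number ran from 34 to 45, with 23 without both, the number with an unadjusted p under 0.05 from 2, without replicate 3 labelled eIF5A-KO, to 13, without WT replicate 2, and the median log2 fold change from 0.13 to 0.55, with -0.0048 without both. Deviations of same-numbered libraries from their group means correlated with r = 0.084, -0.16 and 0.105. With 3 libraries per group this does not settle whether same-numbered libraries were prepared together. With the replicate block 24 genes were called over all genes and 0 of the members, 8 members had an unadjusted p under 0.05, 44 were higher and the median was 0.39.

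The sign of single estimates changed as follows. Nrp1 was 0.016 with limma-voom, 0.012 and 0.026 with limma on log2(FPKM + 1) and log2(FPKM + 0.1), 0.023 with the replicate block and 0.055 after the GC and length trend was taken out, which also put Rasip1 at -0.032 and Eif5a at -0.089. With any 1 library left out, or both WT replicate 1 and replicate 3 labelled eIF5A-KO, the log2 fold changes of genes that changed sign ranged as given: Pecam1 (-0.075 to 0.61), Cdh5 (-0.28 to 0.60), Cd93 (-0.32 to 0.42), Selp (-0.041 to 0.73), Podxl (-0.28 to 0.57), Flt1 (-0.22 to 0.67), Flt4 (-0.31 to 0.64), Nrp1 (-0.61 to 0.50), Nrp2 (-0.12 to 0.55), Tek (-0.23 to 0.40), Ptprb (-0.29 to 0.78), Aplnr (-0.73 to 0.55), Nos3 (-0.29 to 0.55), Mmrn2 (-0.20 to 0.63), Robo4 (-0.17 to 0.76), Efnb2 (-0.14 to 0.40), Ephb4 (-0.043 to 0.56), Sele (-0.24 to 0.65), Rasip1 (-0.52 to 0.37), Erg (-0.15 to 0.54), Tal1 (-0.18 to 0.24), Prox1 (-0.45 to 0.16) and Eif5a (-0.13 to 0.35). The depth limits mainly Lyve1, with 46 counts in its lowest library.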
